A study of Mus musculus with 8 samples.

Results

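The expression of 10 secreted liver factors was examined in whole-liver RNA sequencing of 8 male mice: Fgf21 and Gdf15, the IGF axis genes Igf1, Igfals, Igfbp1 and Igfbp2, the lipoprotein lipase inhibitors Angptl4 and Angptl8, the activin subunit gene Inhbe and the activin antagonist Fst. They are 10 of the 49585 genes counted, and all 10 passed the filter on low counts. They were chosen by their role as secreted liver factors with their counts in these livers known, and Fgf21 was selected on the measured difference of its counts between LP245/+ and LPfl/+ livers. That difference is therefore given as a description with no p-value, and so are the differences of the other 9 factors in the same comparison.

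All mice were fed HFCD, a high-fat diet without added choline, for 3 months from 3 weeks of age. LP245/+ livers (n = 3) are labelled Alb-CreTG, Trp53wm-R245W/+, in which Cre under the albumin promoter switches 1 Trp53 allele to mutant p53R245W. LPfl/+ livers (n = 2) are labelled Alb-CreTG, Trp53fl/+, in which Cre deletes 1 Trp53 allele. LP+/+ livers (n = 3) are labelled Alb-Cre0 and carry a conditional allele without recombination, Trp53fl/+ in replicates 1 and 2 and Trp53wm-R245W/+ in replicate 3. The study's results instead describe LP+/+ as carrying Alb-Cre with unaltered Trp53, while its methods name both Cre-negative and Alb-Cre littermates as controls. By the labels, Cre itself also differs between LP+/+ and the other genotypes. Its part then cannot be told apart from that of the Trp53 change in comparisons with LP+/+. The albumin promoter drives Cre in hepatocytes and cholangiocytes, so the other cells of these livers kept their Trp53 alleles. Each library is 1 liver, and whole-liver RNA cannot tell fewer cells of a type apart from less RNA per cell.

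The liver is an endocrine organ, and these factors carry its nutritional state to other tissues. FGF21 is released by hepatocytes under fasting, amino acid shortage, mitochondrial stress and sugar loading, and it acts through FGF receptors with the coreceptor β-klotho. GDF15 is a stress-induced cytokine that reduces food intake through a hindbrain receptor, and its gene is a known p53 target. IGF1 is made by hepatocytes under growth hormone, circulates in a complex with the acid-labile subunit encoded by Igfals, and is also held by IGFBP1 and IGFBP2. ANGPTL4 and ANGPTL8 restrain lipoprotein lipase in fasted and fed states respectively, activin E encoded by Inhbe is a hepatokine that acts on adipose tissue, and follistatin binds and neutralizes activins.

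Promoter sequences were compared because these genes share stress and nutrient inputs. RefSeq promoter windows of GRCm38.p6, from 250 bases before to 50 bases after an annotated start, were found for 8 of the 10 genes, with 12 windows in all. The letters TGATGCAA, the core of the composite element bound by ATF4 with C/EBP factors, were searched on both strands and were present in windows of Fgf21, Angptl8 and Inhbe, against 0.895% of all 32841 windows. The sequence of the FOXO-bound insulin response element, CAAAACAA, was found in the window of Igfbp1, and 2.51% of all windows hold it. The sequences before the starts of Fgf21 (chr7:45615491-45615740, minus strand), Angptl8 (chr9:21835260-21835509, plus strand) and Igfbp1 (chr11:7197537-7197781, plus strand) are shown with a short stretch for Inhbe (chr10:127352013-127352038, minus strand), 5′ to 3′, with the TGATGCAA match, its reverse complement or the CAAAACAA match in capitals.
Fgf21: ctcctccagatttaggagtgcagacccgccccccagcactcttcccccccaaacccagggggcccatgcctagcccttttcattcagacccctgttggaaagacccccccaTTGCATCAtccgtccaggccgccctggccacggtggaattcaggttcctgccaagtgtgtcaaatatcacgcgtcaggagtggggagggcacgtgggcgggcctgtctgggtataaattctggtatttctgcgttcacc
Angptl8: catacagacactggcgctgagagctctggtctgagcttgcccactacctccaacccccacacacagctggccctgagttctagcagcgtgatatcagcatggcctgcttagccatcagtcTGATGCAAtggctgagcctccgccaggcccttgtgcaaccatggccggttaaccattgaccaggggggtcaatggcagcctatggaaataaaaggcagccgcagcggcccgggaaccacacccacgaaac
Igfbp1: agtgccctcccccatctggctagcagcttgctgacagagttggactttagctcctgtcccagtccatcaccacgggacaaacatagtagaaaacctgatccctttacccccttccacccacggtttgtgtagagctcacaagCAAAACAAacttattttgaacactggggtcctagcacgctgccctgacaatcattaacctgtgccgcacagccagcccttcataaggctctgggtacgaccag
Inhbe: tcctctttcTTGCATCAtgcatgtcc
The match begins 139 bases before the annotated start in Fgf21, 130 bases in Angptl8 and 181 bases in Inhbe, whose match lies inside an annotated Inhbe exon. The E-box CACGTG was present in windows of Fgf21, Gdf15 and Igfbp2, against 7.15% of all windows, and TATAAA in Fgf21 alone, against 13.6%. The Gdf15 match (chr8:70632173-70632178) lies inside the annotated Gdf15 gene (chr8:70629393-70632456). A p53 half-site was found in the window of Angptl8 and in 8.36% of all windows. These are matches of letters within short windows, and binding was not measured.

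Total counts ranged from 26304526 to 31370714 per liver, and counts of genes were normalized by size factors between 0.968 and 1.06. Library numbers in the labels form 2 series, the first with the LP245/+ livers and LP+/+ replicates 2 and 3, the second with the LPfl/+ livers and LP+/+ replicate 1. The first principal component, with 31.0% of the variance, separated these series. LP245/+ and LPfl/+ livers never occur in the same series, so their direct difference also holds any difference between the series, and a series term can be estimated only from the 3 LP+/+ livers, of which 1 is in the second series. LP+/+ replicate 1 stood apart among the factors: it had the highest of the 8 values for Igfbp1, Igfbp2 and Fst and the lowest for Gdf15, Igf1 and Angptl8. Trp53 had normalized read counts of 226, 258 and 202 in LP+/+, 127 and 178 in LPfl/+ livers, and 316, 294 and 193 in LP245/+, so the LPfl/+ livers lay below all LP+/+ livers, and the counts do not distinguish the mutant from the wild-type allele. Cdkn1a, a p53 target that encodes p21, was the only gene of 16496 past the cutoff in LP245/+ compared with LP+/+ (log2 fold change -2.91, standard error 0.27, adjusted p = 0.0155).

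The 10 factors differed widely in level. In TPM, a level relative to the library that divides by exonic length, Igfbp2 had a mean of 271 over the 8 livers, Igf1 115, Angptl8 90.2, Angptl4 85.0, Igfals 72.7, Igfbp1 62.3, Inhbe 22.5, Fgf21 12.1, Gdf15 4.35 and Fst 2.03. Among neighbours in this order, only Igfbp2 and Igf1 had ranges that did not overlap. Inhbe exceeded Fgf21 and Fgf21 exceeded Gdf15 in 8 of 8 livers, while Angptl8 exceeded Angptl4 in 3 of 8. The coefficient of variation of the normalized read count over all 8 livers was 9.65% for Igf1 and 9.86% for Igfals but 77.2% for Igfbp1 and 94.9% for Fst.

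**Figure D1:**
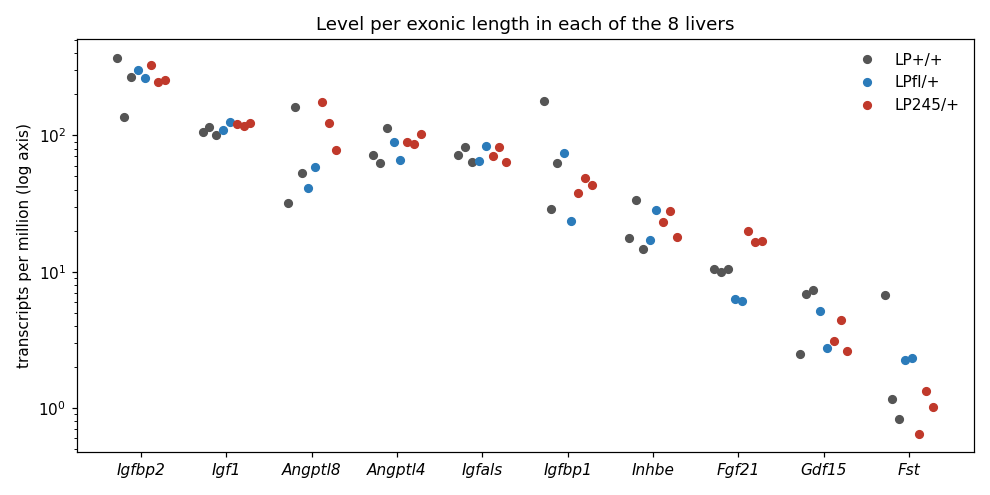
Level of each factor in TPM on a log axis, 1 point per liver, coloured by genotype and ordered by the mean over 8 livers. Igfbp2 (mean 271) and Fst (mean 2.03) lie at the ends, and the Igfbp1, Angptl8 and Fst points are spread widest.

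The cutoff of the study required a log2 fold change of 1 or more in size with an adjusted p no higher than 0.05, and it was passed by 0 of the 10 factors in each comparison with LP+/+ by edgeR's quasi-likelihood test. In LP245/+ compared with LP+/+ it was passed by 0.00606% of all tested genes, and in LPfl/+ compared with LP+/+ by 0%. At an unadjusted p below 0.05, 1 factor was counted in LP245/+ compared with LP+/+, against 5.93% of all genes, and 1 in LPfl/+ compared with LP+/+, against 6.89%, and Fgf21 was the factor in both. Fitted differences above 0 were found for 7 factors in LP245/+, against 50.6% of genes, and for 4 in LPfl/+, against 49.8%. With LP245/+ livers set against LPfl/+ livers, the same threshold counted Fgf21 and Angptl8, 2 factors, against 8.51% of genes. The choice of Fgf21 for that difference fixed its place in the count. The count is therefore a description and is no test of Angptl8 either. With library series as a covariate, the Angptl8 difference was -0.44 (standard error 0.69). The median log2 fold change of the 10 factors was 0.14 in LP245/+ and -0.22 in LPfl/+, each compared with the same LP+/+ livers, beside medians of 0.00 and -0.00 over all tested genes.

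**Figure D2:**
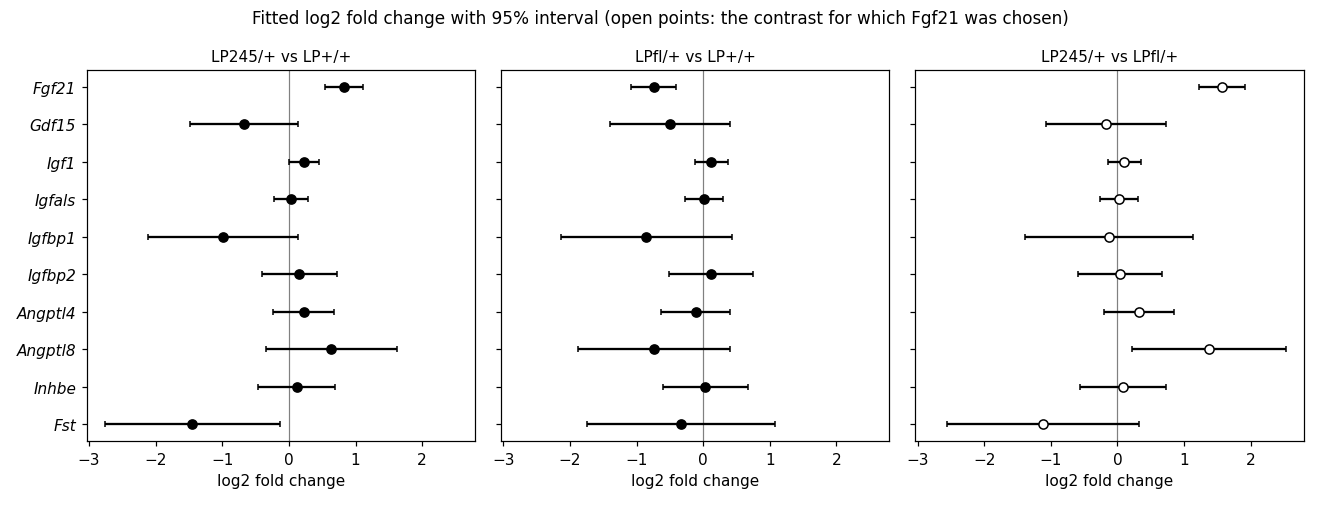
Fitted log2 fold change of each factor with its approximate 95% interval, 1 panel per comparison, with open points in the comparison for which Fgf21 was chosen. The intervals use a normal approximation and are narrower than the quasi-likelihood test implies. Fgf21 lies at 0.82, -0.75 and 1.57 with short intervals, while Igfbp1, Angptl8 and Fst have the widest intervals of the 10 factors in every panel.

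Fgf21 (ENSMUSG00000030827.5, chr7:45613886-45615490, minus strand, GRCm38) had normalized read counts of 118, 117 and 126 in LP+/+ livers, 74.0 and 68.7 in LPfl/+ livers, and 227, 190 and 217 in LP245/+ livers. The LPfl/+ livers were lowest, the LP245/+ livers highest, and none of the 3 genotypes overlapped another. Fgf21 was the 1 factor without overlap between LPfl/+ and LP+/+, and 25.1% of tested genes were without overlap there. All 3 genotypes were free of overlap in 1.5% of tested genes, and in 0.218% with LPfl/+ lowest and LP245/+ highest. Fgf21 was chosen for its difference between LP245/+ and LPfl/+, which fixed part of this order. These shares are therefore a description and do not measure how rare its pattern is. The LP+/+ mean was 120 ± 4.97 (SD, n = 3), the LPfl/+ mean 71.3 ± 3.75 (SD, n = 2) and the LP245/+ mean 211 ± 19.3 (SD, n = 3). These means rest on 68 to 220 counts per liver, and the counting error alone is between 6.74% and 12.1% of the value in each liver. The spread between livers was 4.13% of the mean in LP+/+ and 5.25% in LPfl/+, below the counting error of single livers, and 9.12% in LP245/+, above it.

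Fgf21 was 2.96-fold as high in LP245/+ as in LPfl/+, a fitted log2 fold change of 1.57 (standard error 0.17, approximate 95% interval 1.23 to 1.91). Intervals here use a normal approximation and are narrower than the quasi-likelihood test implies. Compared with LP+/+, it was higher in LP245/+ by 0.82 (standard error 0.15, unadjusted p = 0.000235, adjusted p = 0.795 by edgeR), and lower in LPfl/+, with a log2 fold change of -0.75 (standard error 0.17, unadjusted p = 0.00158, adjusted p = 0.697 by edgeR). Neither difference passed the adjusted threshold, and both hold livers whose Fgf21 level led to its choice, so these p-values are not independent of it. The exact 2-sided permutation test gave p = 0.1 in each of the 2 comparisons with LP+/+, the smallest these group sizes allow. With DESeq2 the adjusted p for LP245/+ compared with LP+/+ was 0.0223, at a log2 fold change of 0.81 that is below the cutoff. Inside the first library series, LP245/+ livers differed from LP+/+ replicates 2 and 3 by 0.80, and within the second the LPfl/+ livers differed from LP+/+ replicate 1 by -0.72. LP+/+ replicate 1, at 118, lay beside the LP+/+ livers of the other series, at 117 and 126.

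**Figure D3:**
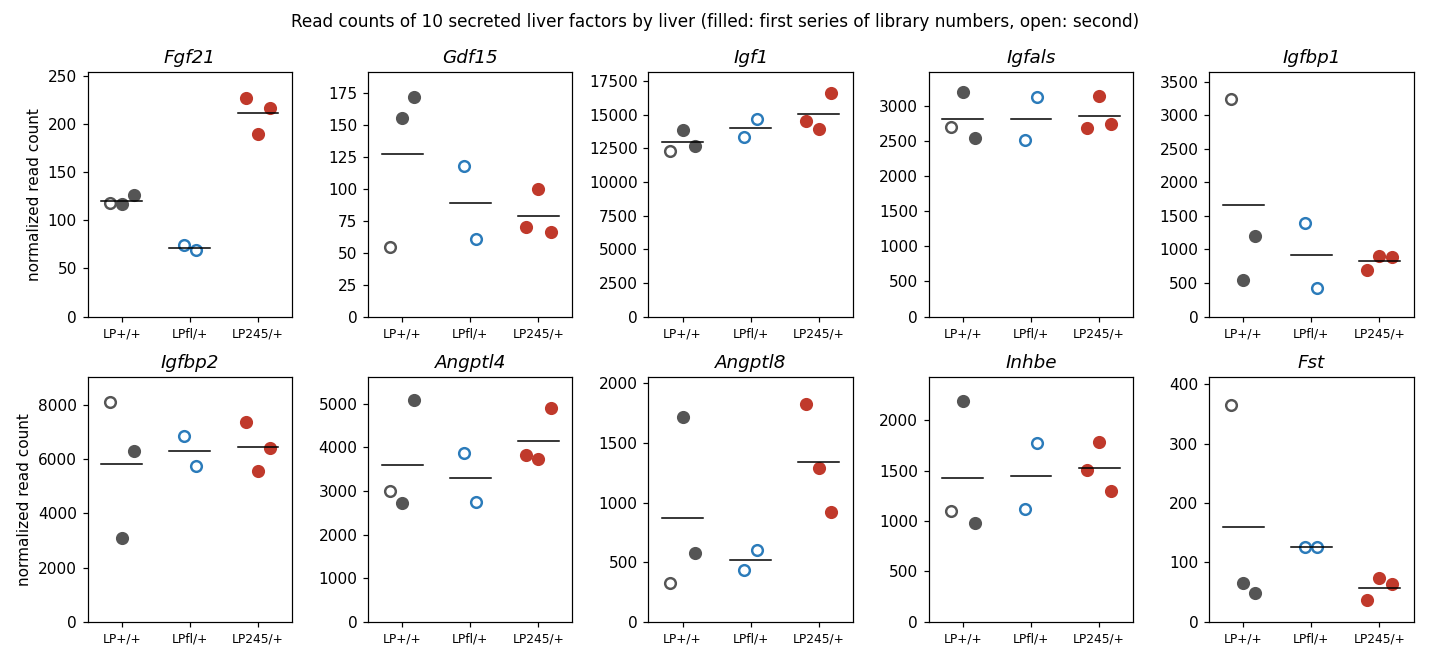
Normalized read count of each factor in every liver, with bars at genotype means, filled points for the first series of library numbers and open points for the second. Fgf21 forms 3 separate levels (68.7 to 74.0, 117 to 126 and 190 to 227), and the open LP+/+ point, replicate 1, is far above the others in Igfbp1 and Fst.

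Gdf15 (ENSMUSG00000038508.7, chr8:70629393-70632456, minus strand) had normalized read counts of 54.1, 156 and 171 in LP+/+, 118 and 60.6 in LPfl/+ livers, and 70.3, 100.03 and 66.2 in LP245/+. LP+/+ replicate 1 was the lowest of the 8 livers and the other 2 LP+/+ livers were the highest, so the LP+/+ livers overlapped both other genotypes. Against LP+/+, the log2 difference was -0.68 for LP245/+ (standard error 0.41, adjusted p = 0.839 by edgeR) and -0.50 for LPfl/+ (standard error 0.46, adjusted p = 0.843 by edgeR). Without LP+/+ replicate 1 these differences were -1.04 and -0.87, with adjusted p-values of 0.599 and 0.320 by edgeR. Without LP+/+ replicate 3 they were -0.41 and -0.24, and the LPfl/+ difference was -0.12 without LPfl/+ replicate 2 and -1.07 without LPfl/+ replicate 1. LP245/+ and LPfl/+ livers overlapped, with a difference of -0.17 (standard error 0.46), which was -1.76 (standard error 0.51) with library series as a covariate and 0.38 without LPfl/+ replicate 1. Gdf15 and Fgf21 thus had different orders of the genotypes, and both the lowest and the highest Gdf15 value belonged to an LP+/+ liver.

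Igf1 (ENSMUSG00000020053.18, chr10:87858265-87937042, plus strand) had normalized read counts of 12289, 13906 and 12677 in LP+/+, 13352 and 14698 in LPfl/+ livers, and 14547, 13977 and 16629 in LP245/+. Every LP245/+ liver was above every LP+/+ liver, by a narrow margin of 13977 against 13906. Genes without overlap between these 2 genotypes made up 11.8% of those tested, and Igf1 and Fgf21 were the 2 factors among them. The log2 fold change of Igf1 was 0.23 (standard error 0.11, unadjusted p = 0.0756, adjusted p = 0.831 by edgeR) in LP245/+ and 0.12 (standard error 0.13) in LPfl/+, each against LP+/+, and leaving out single livers gave 0.14 to 0.27 and 0.04 to 0.18.

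Igfals (ENSMUSG00000046070.8, chr17:24865997-24882010, plus strand), whose product stabilizes circulating IGF1, was the least different of the factors between genotypes. It had normalized read counts of 2703, 3193 and 2544 in LP+/+, 2509 and 3121 in LPfl/+ livers, and 2689, 3146 and 2741 in LP245/+. The 3 genotypes overlapped throughout. Fitted differences were 0.03 (approximate 95% interval -0.22 to 0.29) in LP245/+ and 0.01 (approximate 95% interval -0.27 to 0.29) in LPfl/+, each compared with LP+/+.

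Igfbp1 (ENSMUSG00000020429.7, chr11:7197782-7202546, plus strand), which insulin represses and FOXO1 activates, had normalized read counts of 3234, 542 and 1199 in LP+/+, 1391 and 429 in LPfl/+ livers, and 693, 905 and 893 in LP245/+. LP+/+ replicate 1 was 3.62 times the median of the other 7 livers, and all genotypes overlapped. The log2 fold change against LP+/+ was -0.99 in LP245/+ (standard error 0.58) and -0.86 in LPfl/+ (standard error 0.65), and without LP+/+ replicate 1 it was -0.06 and 0.07. The coefficient of variation was 84.6% within LP+/+ and 14.3% within LP245/+. G6pc, the glucose-6-phosphatase gene that insulin also represses, was highest in the same LP+/+ liver, at 32735 against 8775 to 25614 elsewhere. Pck1, another gene that insulin represses, was not, at 57263 in that liver and 22959 to 79576 elsewhere.

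Igfbp2 (ENSMUSG00000039323.18, chr1:72824503-72852474, plus strand), the most abundant of the 10 transcripts per length, had normalized read counts of 8093, 3072 and 6276 in LP+/+, 6826 and 5730 in LPfl/+ livers, and 7374, 5541 and 6385 in LP245/+. Both the highest and the lowest liver were LP+/+, and the other 2 genotypes lay between them. The log2 fold change was 0.16 (standard error 0.29) in LP245/+ and 0.12 (standard error 0.32) in LPfl/+.

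Angptl4 (ENSMUSG00000002289.15, chr17:33773750-33781830, minus strand), a PPAR target induced by fatty acids, had normalized read counts of 2992, 2717 and 5077 in LP+/+, 3865 and 2752 in LPfl/+ livers, and 3830, 3725 and 4908 in LP245/+. The highest value was LP+/+ replicate 3, and all genotypes overlapped. Its log2 fold change against LP+/+ was 0.22 (standard error 0.24) in LP245/+ and -0.11 (standard error 0.27) in LPfl/+. Without LP+/+ replicate 2 these were 0.04 and -0.29, and without LP+/+ replicate 3 they were 0.55 and 0.21.

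Angptl8 (ENSMUSG00000047822.8, chr9:21835510-21837347, plus strand), which is induced by feeding and lies within Dock6 on the opposite strand without shared exonic bases, varied more. It had normalized read counts of 327, 1721 and 574 in LP+/+, 436 and 606 in LPfl/+ livers, and 1825, 1287 and 920 in LP245/+. All LP245/+ livers were above both LPfl/+ livers, and the LP+/+ livers covered nearly the whole range. LP245/+ and LPfl/+ differed by 1.37 on the log2 scale (standard error 0.59), in the comparison for which Fgf21 was chosen, but by -0.44 (standard error 0.69) with library series as a covariate. Genes without overlap between those 2 genotypes made up 25.4% of those tested, and Fgf21, Angptl8 and Fst were the 3 factors among them. Compared with LP+/+, the difference was 0.63 (standard error 0.50, adjusted p = 0.868 by edgeR) for LP245/+ and -0.74 (standard error 0.58, adjusted p = 0.816 by edgeR) for LPfl/+. Without LP+/+ replicate 2 these differences were 1.58 and 0.20, and without LP+/+ replicate 1 they were 0.24 and -1.13.

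Inhbe (ENSMUSG00000047492.4, chr10:127348857-127354411, minus strand) had normalized read counts of 1104, 2189 and 982 in LP+/+, 1116 and 1777 in LPfl/+ livers, and 1504, 1788 and 1295 in LP245/+. The genotypes overlapped, and both extremes were LP+/+ livers. Its log2 fold change against LP+/+ was 0.11 (standard error 0.29) in LP245/+ and 0.03 (standard error 0.33) in LPfl/+.

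Fst (ENSMUSG00000021765.7, chr13:114452290-114458951, minus strand), the lowest of the 10 per length, had normalized read counts of 365, 65.3 and 48.0 in LP+/+, 126 and 126 in LPfl/+ livers, and 36.2, 73.8 and 63.1 in LP245/+. LP+/+ replicate 1 was 5.59 times the median of the other 7 livers, the LPfl/+ livers came next, and the first series of libraries held the 5 lowest values. Fst shares 115 exonic bases with the antisense gene Gm47040, and the strand setting of the counting was not stated. Its log2 difference was -1.45 for LP245/+ (standard error 0.67, adjusted p = 0.831 by edgeR) and -0.33 in LPfl/+ (standard error 0.72), each against LP+/+, and 0.04 and 1.16 without LP+/+ replicate 1, the latter with an adjusted p of 0.185 by edgeR. Its level moved with the series of library numbers, and the part of the series in the difference between genotypes was not tested beyond these values.

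Within the first series, with 3 LP245/+ and 2 LP+/+ livers, the log2 ratio was -1.05 for Gdf15, 0.18 for Igf1, -0.00 for Igfals, -0.07 for Igfbp1, 0.46 for Igfbp2, 0.09 for Angptl4, 0.23 for Angptl8, -0.05 for Inhbe and 0.03 for Fst. Within the second, with 2 LPfl/+ livers and LP+/+ replicate 1, it was 0.72 for Gdf15, 0.19 for Igf1, 0.06 for Igfals, -1.83 for Igfbp1, -0.37 for Igfbp2, 0.14 for Angptl4, 0.67 for Angptl8, 0.39 for Inhbe and -1.54 for Fst. Fgf21, Igf1 and Igfbp1 kept the direction they had over all 8 livers in both series. Igfals, Inhbe and Fst turned in the first, and Gdf15, Igfbp2, Angptl4 and Angptl8 turned in the second, where LP+/+ replicate 1 was the only LP+/+ liver.

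With library series as a covariate, the log2 difference between LP245/+ and LPfl/+ was 1.52 (standard error 0.29) for Fgf21, beside 1.57 without the term. It was 1.76 for Igfbp1 (standard error 0.70), 1.57 for Fst (standard error 0.45) and 0.83 for Igfbp2 (standard error 0.42), beside -0.13, -1.12 and 0.04 without it, so the Igfbp1 and Fst differences turned. The other factors, apart from Gdf15 and Angptl8 given above, were at -0.0080 for Igf1, -0.06 for Igfals, -0.05 for Angptl4 and -0.44 for Inhbe, all of them above 0 without the term.

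Genes that act with the factors, in 13 lists, included 0 past the adjusted cutoff in either comparison with LP+/+. Over all tested genes, an unadjusted p below 0.05 came with a higher level in 3.55% and a lower level in 2.38% in LP245/+, and in 4.22% and 2.67% in LPfl/+. Among 6 genes for FGF21 receptors, including the β-klotho gene Klb, 0 had an unadjusted p below 0.05 in either comparison. Klb differed from LP+/+ by 0.18 (standard error 0.16) in LP245/+ and by 0.17 (standard error 0.17) in LPfl/+ on the log2 scale. Of the 19 tested genes of the growth hormone and IGF axis, 1 was higher in LP245/+ at an unadjusted p below 0.05. It was Igf2, a fetal growth factor nearly silent in adult liver, with normalized read counts of 1.93, 3.84 and 3.76 in LP+/+, 10.1 and 5.05 in LPfl/+ livers, and 13.4, 13.1 and 11.2 in LP245/+. For LPfl/+, 1 gene of the list was lower, Irs2, an insulin receptor substrate (log2 fold change -0.72, standard error 0.30). The growth hormone receptor gene Ghr differed by 0.08 (standard error 0.11) and 0.05 (standard error 0.12).

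Of 16 tested genes for activins, their receptors and antagonists, 1 was higher and 1 lower in LP245/+ at an unadjusted p below 0.05. These were the receptor genes Acvr2a (log2 fold change 0.21, standard error 0.09) and Acvr1b (-0.52, standard error 0.19). For LPfl/+, 1 was higher and 2 lower than in LP+/+. The activin A subunit gene Inhba differed by 0.64 (standard error 0.28), while Inhbb and Inhbc, the subunit genes of activins B and C, differed by -0.85 (standard error 0.27) and -0.32 (standard error 0.12). Inhbb had normalized read counts of 110, 209 and 198 in LP+/+, 97.3 and 92.9 in LPfl/+ livers, and 145, 119 and 134 in LP245/+, so both LPfl/+ livers lay below the other 6. Adjusted p-values of all 5 genes were at least 0.697 by edgeR.

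Among 19 other hepatokine genes, 4 were lower and 0 higher in LP245/+ compared with LP+/+ at an unadjusted p below 0.05. They included the acute phase gene Orm1 (log2 fold change -0.41, standard error 0.14), Fgl1, which encodes a fibrinogen-like ligand (-0.73, standard error 0.29), and Tsku, which encodes tsukushi (-0.72, standard error 0.29). Against the same livers, 2 were lower in LPfl/+, Tsku (-1.48, standard error 0.34) and Lect2, a chemotactic hepatokine gene (-0.46, standard error 0.21). Tsku had normalized read counts of 1063, 1899 and 1314 in LP+/+, 416 and 598 in LPfl/+ livers, and 1137, 899 and 527 in LP245/+, and LPfl/+ and LP+/+ did not overlap. In the list for lipoprotein lipase and its regulators, 0 of 11 genes were counted in either comparison with LP+/+.

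Targets of the regulators known to act on Fgf21 were counted in the same way. For ATF4, a transcription factor of the integrated stress response, 0 of 21 tested targets had an unadjusted p below 0.05 in either comparison with LP+/+, and their median log2 fold change was 0.01 in LP245/+ and -0.22 in LPfl/+ (0.15 and -0.13 with library series as a covariate). Asns, an ATF4 target encoding asparagine synthetase, was at 68.6 in LP+/+ replicate 1 and at 8.47 to 26.3 in the other 7 livers. Ddit3, also in the list of ATF4 targets, was lowest in that liver, at 110 against 137 to 321 in the others. The targets thus did not move together in LP+/+ replicate 1. For PPARα, the fasting regulator, 1 of 22 was lower in LP245/+, Plin5 (-0.34, standard error 0.14), a lipid droplet gene, and 0 were counted in LPfl/+.

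For ChREBP and SREBP1c, which drive lipogenic genes, 21 targets were tested. Thrsp, a lipogenic gene, was the 1 gene counted in LP245/+ compared with LP+/+, where its fitted difference was 0.91 (standard error 0.27, edgeR adjusted p = 0.795). LPfl/+ livers had 3 genes lower than LP+/+ at an unadjusted p below 0.05, Me1 (-0.68, standard error 0.12), Elovl6 (-0.71, standard error 0.17) and Scd1 (-0.75, standard error 0.24), which encode malic enzyme, a fatty acid elongase and stearoyl-CoA desaturase, all with an adjusted p of 0.697 by edgeR. In that comparison 2 of 21 targets had a fitted difference above 0, and the median was -0.32 (-0.56 with library series as a covariate), beside 49.8% of all tested genes above 0. With LP245/+ set against LPfl/+, 20 of 21 were above 0 with a median of 0.33 (0.78 with the covariate), beside 50.8% of all genes, and this count is a description in the comparison for which Fgf21 was chosen. Several other lists leaned the same way in these comparisons. In the same order, 7 and 16 of 21 ATF4 targets and 4 and 16 of 22 PPARα targets were above 0. So were 0 and 10 of 11 genes with female-biased growth hormone responses, but 7 and 3 of 13 male-biased genes. The PPARα medians were -0.12 and 0.10, and 0.26 and -0.45 with the covariate. The female-biased medians were -0.78 and 0.57, and 0.98 and -2.11 with the covariate. The male-biased medians were 0.08 and -0.42, and -0.78 and 1.48 with the covariate. The directions of the PPARα, female-biased and male-biased medians thus turned with that term. Elovl6 had normalized read counts of 3707, 4338 and 2852 in LP+/+, 2441 and 1973 in LPfl/+ livers, and 4429, 4331 and 4605 in LP245/+. Like Fgf21, it had its lowest livers in LPfl/+ and 2 of its highest in LP245/+, but LP+/+ replicate 2 overlapped the LP245/+ livers.

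Among 12 genes that insulin represses through FOXO1 or that belong to insulin signaling, 1 was lower in each comparison with LP+/+, G6pc in LP245/+ (-1.05, standard error 0.36) and Irs2 in LPfl/+. Of 20 transcription regulators, 1 was higher and 3 lower in LP245/+ compared with LP+/+ at an unadjusted p below 0.05, and 0 were counted in LPfl/+. Among those lower, Esr1, the estrogen receptor gene, differed by -0.50 (standard error 0.15) and Nr4a1, an immediate early nuclear receptor gene, by -1.15 (standard error 0.44). Nr1d1, the clock repressor gene whose transcript cycles over the day, had normalized read counts of 148, 902 and 722 in LP+/+, 462 and 297 in LPfl/+ livers, and 1764, 1156 and 1025 in LP245/+. Its second-series livers were the 3 lowest and its LP245/+ livers the 3 highest, and the part of such a clock difference in the levels of Fgf21 and the other factors was not tested.

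Of 13 genes with male-biased growth hormone responses, 1 was lower in LP245/+ at an unadjusted p below 0.05, and 0 were counted in LPfl/+. That gene, Moxd1, rested on a single LP+/+ liver, since its LP+/+ mean of 742 had an SD of 1283. Of 11 female-biased genes tested, 0 were counted in LP245/+ and 2 were lower in LPfl/+, Cyp2b13 and Hao2, whose LP+/+ and LPfl/+ livers overlapped. Of the 3 genes for the GDF15 receptor and its processing, 1 passed the filter on low counts, and it was counted in neither comparison.

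**Figure D4:**
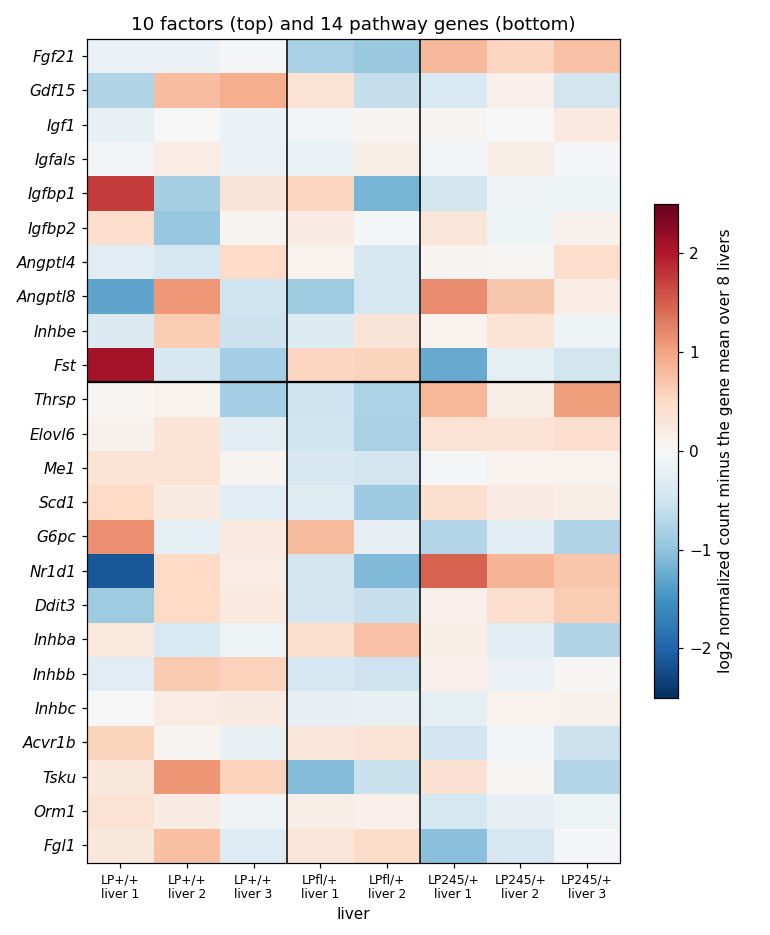
Log2 normalized read count of the 10 factors and 14 pathway genes in each liver, minus the mean of the gene over the 8 livers, with livers as columns. Fgf21 is blue in both LPfl/+ livers and red in all LP245/+ livers, and LP+/+ replicate 1 holds the darkest cells, at Igfbp1, Fst and Nr1d1.

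The 5 genes whose log2 normalized counts were most like those of Fgf21 over the 8 livers, of 11638 genes with a mean of at least 50, were Ptch1 (r = 0.976), Eif4g2 (r = 0.949), Mroh2a (r = 0.948), Hspa1b (r = 0.943) and Rhbdd2 (r = 0.939). They encode a Hedgehog receptor, a translation initiation factor, a HEAT repeat protein, an inducible HSP70 chaperone and a rhomboid-domain protein. The livers behind these values share library series and genotype, and the list is a description of the closest profiles among many. Ptch1 had normalized read counts of 806, 830 and 823 in LP+/+, 693 and 723 in LPfl/+ livers, and 1027, 977 and 944 in LP245/+. It had the same order of genotypes as Fgf21 without overlap, over a narrower range.

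Hspa1b spanned a wider range, from 27.3 in LPfl/+ replicate 2 to 172 in LP245/+ replicate 2. It was at 42.5, 75.9 and 77.2 in LP+/+, so LP+/+ replicate 1 lay close to LPfl/+ replicate 1, at 39.5. Its reads are uncertain because Hspa1a is a near-identical copy, and the same holds for Orm1, Cyp2b13 and the globin genes, which have close paralogs.

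Among the 45 pairs of factors, Igfals and Inhbe varied most closely together over the 8 livers, with Pearson's r = 0.922 (exact permutation p = 0.00255, adjusted over 45 pairs 0.115) and Spearman's rho = 0.833 (exact permutation p = 0.0154, adjusted 0.312). Without LP+/+ replicate 2 and LP245/+ replicate 2, the livers farthest from the median Igfals level, r was 0.851. Within the 5 livers of the first series it was 0.926, and the second series, with 3 livers, was too small for a value. No pair passed the adjustment. The next pairs by raw p were Igfbp2 with Inhbe (r = -0.744), Igfals with Igfbp2 (r = -0.695) and Angptl8 with Fst (r = -0.764). In the first series r was -0.709 and -0.753 for the first 2 of these pairs, and -0.05 for Angptl8 with Fst, so that this last relation did not hold within the series. Without the 2 livers farthest from the median of the first gene of each pair, r was -0.459, -0.442 and -0.705, in the same order.

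Cell type markers were summed as CPM in each liver. The 7 hepatocyte markers, which include Alb and Ttr, summed to 116903 to 151477 in LP+/+, 117931 to 119462 in LPfl/+ and 120109 to 132440 in LP245/+, and all 7 were detected, as the label of liver tissue says. The 10 Kupffer cell and macrophage markers summed to 358 to 407, 369 to 484 and 315 to 368 in the same order, and the 7 sinusoidal endothelial markers to 655 to 722, 471 to 669 and 595 to 780. The 9 stellate cell and fibroblast markers summed to 538 to 581, 463 to 609 and 534 to 583, and the 6 cholangiocyte markers to 5.90 to 7.85, 4.83 to 8.88 and 5.90 to 7.70. Erythroid markers summed to 472 to 672, 348 to 479 and 319 to 604, and 3 of 6 were lower in LPfl/+ than in LP+/+ at an unadjusted p below 0.05. Neutrophil markers summed to 3.54 to 4.22, 5.01 to 5.05 and 3.32 to 3.85, with both LPfl/+ livers above the other 6, Ly6g at 0, and a log2 difference of 0.69 for S100a9 (standard error 0.26, adjusted p = 0.704 by edgeR) in LPfl/+ compared with LP+/+. In that comparison S100a8 differed by 0.81 (standard error 0.46) but Csf3r by -0.08 (standard error 0.21), so the neutrophil markers did not all rise. B cell markers summed to 4.40 to 4.81, 3.19 to 3.82 and 2.76 to 4.93, and T and NK cell markers to 2.45 to 6.98, 4.43 to 4.44 and 1.84 to 4.49. The pancreatic acinar markers Prss2, Ctrb1 and Amy2a5 were at 0, as was the adipocyte marker Lep, while Adipoq, Plin1 and Retn had at most 3 counts per liver. The acinar list summed to 29.1 to 32.9, 25.7 to 34.4 and 20.5 to 34.2, and the adipocyte list to 3843 to 4149, 3755 to 3766 and 2650 to 3795, nearly all of it from Car3, which hepatocytes also express. No sum of these lists ordered the livers as Fgf21 did, and the part of cell composition in the levels of the 10 factors was not tested further.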

How the data were processed

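RNA of 8 livers was sequenced from TruSeq stranded libraries with 76-bp paired-end reads. The authors aligned reads to GRCm38 with STAR under default parameters and counted them with STAR on a GENCODE annotation, and they deposited raw counts per gene for each liver without normalization. The GENCODE release and strand setting are not given in the sources used here. Symbols and positions came from GENCODE M21 of GRCm38 by unversioned ID (49326 of 49585 IDs had a symbol). Promoter windows came from RefSeq.

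Counts were tested with the quasi-likelihood F test of edgeR 4.0.16 under R 4.3.3, with TMM normalization and filterByExpr by genotype. All 8 livers were fitted together, and p-values were adjusted by Benjamini-Hochberg over 16496 genes. Normalized read counts were counts divided by DESeq2 1.42.0 size factors, a pseudocount of 1 was added for correlations and permutation tests, and TPM used exonic length. Permutation tests enumerated all arrangements of the livers in Python 3.11.15, and SciPy 1.17.1 gave the ranks and the adjustment over pairs. The edgeR test was checked on simulated counts for LP245/+ compared with LP+/+, and the permutation tests were not. The factors, the gene lists and the tests were chosen with earlier results of these data known. Named genes were the factors, Trp53, Cdkn1a, at most 3 genes per list and comparison with the smallest unadjusted p below 0.05, overlapping genes and the 5 genes most like Fgf21. Other genes, among them Klb, Ghr, Asns and Nr1d1, were named after their values were seen. The values of 1 gene that this rule names are not reported here.

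Total counts of 26304526 to 31370714 leave a floor of 3 counts per gene. No labels say that animals were paired. The 28 pairs of libraries differed by more than sampling noise, and each was counted as 1 sample. Alternatives covered DESeq2, other scalings and filters, only the genotypes compared, a replicate block, library series as a covariate, leaving out single livers, and, chosen after seeing the data, ratios within a series.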

Additional observations from a re-analysis of the deposited data

How the results depend on the processing

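The log2 difference of Fgf21 kept its direction under all alternatives run. Leaving out each liver gave 0.76 to 0.89 in LP245/+ and -0.81 to -0.71 in LPfl/+, each compared with LP+/+, and 1.52 to 1.64 between LP245/+ and LPfl/+. DESeq2 alone put its adjusted p below 0.05, in LP245/+ compared with LP+/+. Counts of 35 to 378 per liver limit Fst, Gdf15 and Fgf21, and 2 LPfl/+ livers limit every comparison with that genotype.

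In LP245/+ compared with LP+/+, the number of genes past the cutoff, 1, was 10 with DESeq2, 3 with library series as a covariate, 20 without a filter on low counts, 0 with the replicate block and 0 to 5 when a liver was left out, with the call of Cdkn1a lost without LP+/+ replicate 3 or LP245/+ replicate 2. In LPfl/+ compared with LP+/+, the number 0 became 9 with DESeq2, 3 with the covariate, 14 without the filter and 0 to 59 when a liver was left out, the most without LP+/+ replicate 1. In LP245/+ compared with LPfl/+, the number 0 became 57 with DESeq2, 10 with the covariate, 122 without the filter, 51 with only these livers fitted and 0 to 47 when a liver was left out, the most without LP+/+ replicate 1. The cause of these changes was not tested.

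Factors with an unadjusted p below 0.05 in LP245/+ compared with LP+/+ numbered 2 with the covariate (6.65% of genes), 4 without the filter (4.82%) and 1 to 5 when a liver was left out. The 5, without LP+/+ replicate 2, were Angptl8, Fgf21, Fst, Igfbp1 and Inhbe, against 5.62% of genes, and 3 were counted without LP+/+ replicate 3 (5.82%) and 2 without LP+/+ replicate 1 (6.7%). In LPfl/+ compared with LP+/+ they numbered 3 with the covariate (5.37% of genes), 3 without the filter (5.38%) and 1 to 4 when a liver was left out. The 4, without LP+/+ replicate 1, were Angptl8, Fgf21, Fst and Gdf15, against 11.7% of genes, and 2 were counted without LP+/+ replicate 2 (4.3%) and 2 without LPfl/+ replicate 1 (5.62%). In LP245/+ compared with LPfl/+, the choice of Fgf21 fixed its place, and the counts are a description that tests no factor. Factors below the threshold there numbered 1 with DESeq2 (7.29% of genes), 1 with library totals (8.41%), 4 with the covariate (5.27%), 3 without the filter (6.54%), 3 with only these livers fitted (9.49%) and 1 to 3 when a liver was left out (6.45% to 10.8%).

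Directions that turned belonged to differences that had not passed the test. In LP245/+ compared with LP+/+, the covariate gave -0.0387 for Inhbe and 0.0394 for Fst, and ratios within the series gave -0.00473 for Igfals, -0.0521 for Inhbe and 0.0261 for Fst. In LPfl/+ compared with LP+/+, the covariate gave 0.73 for Gdf15, -0.36 for Igfbp2, 0.15 for Angptl4 and 0.68 for Angptl8, ratios within the series gave 0.72, -0.37, 0.14 and 0.67 for the same genes, and the replicate block gave -0.0432 for Igfals, 0.13 for Angptl4 and -0.10 for Inhbe. Leaving out each liver gave, in LP245/+ compared with LP+/+, -0.0423 to 0.12 for Igfals, -0.16 to 0.47 for Igfbp2, -0.10 to 0.55 for Inhbe and -1.89 to 0.0398 for Fst. In LPfl/+ compared with LP+/+ it gave -0.17 to 0.15 for Igfals, -1.95 to 0.0736 for Igfbp1, -0.20 to 0.44 for Igfbp2, -0.39 to 0.21 for Angptl4, -1.13 to 0.20 for Angptl8, -0.36 to 0.47 for Inhbe and -0.77 to 1.16 for Fst. With 1 LPfl/+ liver left, that liver is assumed to vary like the other genotypes.

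The replicate numbers did not pair the livers: correlations of deviations between livers with the same number lay between -0.08 and 0.03. As a block, the replicate number gave a log2 difference of 0.82 for Fgf21 between LP245/+ and LP+/+ and 1.54 between LP245/+ and LPfl/+.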
